A study of Mus musculus with 6 samples.

Results

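Most protein-coding genes with accessible chromatin at their start had a single accessible region there, and 499 genes had more than 1. Accessibility was read by ATAC-seq, an assay in which a transposase places adapters preferentially in DNA that nucleosomes do not cover. A promoter region was a listed region whose centre lay within 1000 bp of the transcription start site (TSS) of the protein-coding gene to which the authors' table assigned it. A gene was included where it had at least 2 such regions. The rule used position alone and no signal value. It found 499 of the 9519 protein-coding genes with a promoter region (5.24%), with 1012 of 10032 promoter regions and of 63430 regions in all. Of these genes, 485 had 2 regions, 14 had 3 and 0 had 4 or more. In each gene the region closest to the TSS is called the nearest region (499 regions) and any other the farther region (513 regions), and in the 14 genes with 3 the farthest was paired with the nearest. The filter on low values, which asked that 3 or more of 6 libraries have a signal of 10 or more, was passed by 493 farther and 492 nearest regions, and in 476 genes by both regions of the pair.

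All libraries came from NIH/3T3 fibroblasts, a line from mouse embryos, with Cas13d knocked in. Cas13d is an RNA-cutting CRISPR nuclease. For the 3 Actg1 guide libraries the transfected guide RNA targeted Actg1 mRNA, which encodes cytoplasmic gamma-actin. For the 3 GFP guide libraries, the control, it targeted GFP. The labels name a single guide for Actg1 and call the replicates biological, and do not say whether they were separate cultures. What the p-values measure is therefore the spread among these samples, and it may be technical. The study asked what part mRNA decay plays in transcriptional adaptation, the rise in transcription of related genes that can follow breakdown of an mRNA.

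Estimated reads in regions ranged from 5675679 to 9526231 per library. The difference between GFP guide replicates 1 and 2 was below sampling noise (chi-square per region 0.991, p = 0.918, against 1.04 to 1.12 in the other pairs within a group). They were counted as 1 sample, so n was 3 for the Actg1 guide and 2 for the GFP guide. Correlations of log2 signal over regions were 0.972 to 0.981 for libraries of 1 group and 0.90 to 0.92 for libraries of different groups. Of 14 fibroblast markers, 10 had a promoter region, against 3 of 12 epithelial, 3 of 12 haematopoietic, 2 of 8 endothelial and 5 of 16 striated muscle markers, and none was listed for Epcam, Ptprc, Pecam1 or Myod1. The summed signal of the fibroblast markers ranged from 3560 to 3694 in the Actg1 guide libraries, against 3954 to 4042 in the GFP guide libraries. The bulk signal does not tell fewer cells with an open region from less opening per cell.

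A promoter holds the sites at which RNA polymerase II and the general transcription factors assemble, and an active promoter is kept free of nucleosomes around its TSS. Many mammalian promoters lie in CpG islands, stretches rich in the CG dinucleotide that often carry GC boxes bound by factors of the Sp family, while fewer have a TATA box at a fixed distance before the start. A gene can use alternative promoters at separate starts, and accessible elements beside a start can also be sites of transcription factor binding with no start of their own.

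To show what both kinds of region can hold, the 250 bases before RefSeq starts (build GRCm38.p6, the assembly of mm10) were read for genes that the results below turn on. They are printed 5′ to 3′ on the gene's strand, and capitals mark matches on either strand to the GC box GGGCGG, the CCAAT box CCAAT, the TATA box TATAAA, the AP-1 site TGANTCA, the cAMP response element TGACGTCA and the ETS site CCGGAAG. Matches did not overlap one another here. The first 4 sequences come from genes whose farther region had many times the signal of the nearest and itself held a RefSeq start of the gene. In Rprd2 that region also covers the TSS, and it is the farther one by its centre alone. Patz1 (chr11:3290207-3290456, plus strand), Rprd2 (chr3:95818954-95819203, minus strand) and the start of Wdr37 in its farther region (chr13:8871045-8871294, minus strand) are shown beside a second Wdr37 start, whose window reaches into the nearest region (chr13:8871737-8871986, minus strand).
Patz1, farther region: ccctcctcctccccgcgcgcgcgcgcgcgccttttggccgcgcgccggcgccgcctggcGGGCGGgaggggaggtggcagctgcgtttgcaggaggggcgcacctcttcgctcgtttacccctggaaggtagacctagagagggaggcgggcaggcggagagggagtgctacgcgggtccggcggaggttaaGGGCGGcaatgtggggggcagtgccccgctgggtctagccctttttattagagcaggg
Rprd2, farther region: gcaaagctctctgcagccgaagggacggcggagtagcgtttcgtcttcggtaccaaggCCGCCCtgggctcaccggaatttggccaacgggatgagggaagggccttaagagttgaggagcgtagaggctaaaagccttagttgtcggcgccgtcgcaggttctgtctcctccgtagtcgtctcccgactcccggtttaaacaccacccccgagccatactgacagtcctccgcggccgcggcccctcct
Wdr37, farther region: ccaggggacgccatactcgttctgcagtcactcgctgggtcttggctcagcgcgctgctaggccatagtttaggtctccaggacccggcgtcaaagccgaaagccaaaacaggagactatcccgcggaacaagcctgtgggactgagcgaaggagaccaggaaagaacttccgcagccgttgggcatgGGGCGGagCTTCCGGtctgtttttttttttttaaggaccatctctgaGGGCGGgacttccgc
Wdr37, nearest region: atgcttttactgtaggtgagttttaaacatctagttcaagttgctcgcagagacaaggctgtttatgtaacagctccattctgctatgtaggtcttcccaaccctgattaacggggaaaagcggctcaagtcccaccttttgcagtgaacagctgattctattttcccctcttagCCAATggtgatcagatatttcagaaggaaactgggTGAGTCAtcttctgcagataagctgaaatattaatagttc

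The window of the Wdr37 start in the farther region had 17 CG dinucleotides and 58% G or C, and the window of the start in the nearest region had 3 and 42%. All 250 bases of the first window lie in the farther region, but only 82 of the second lie in the nearest region. The second therefore describes mostly sequence outside that region. The Patz1 window shown had 28 CG dinucleotides and 71.2% G or C, and Rprd2 had 23 and 62%. Another Patz1 start in the same farther region, not printed, had 11 and 55.6%. That start lay 257 bp from the TSS in the table, and the printed one 1583 bp. A further 3 windows belong to genes whose RefSeq start lay in the nearest region and in which that region, the farther region or both changed between guides. They are Cuedc2 (chr19:46338661-46338910, minus strand), Exosc6 (chr8:111056089-111056338, plus strand) and S100a4 (chr3:90603520-90603769, plus strand).
Cuedc2, nearest region: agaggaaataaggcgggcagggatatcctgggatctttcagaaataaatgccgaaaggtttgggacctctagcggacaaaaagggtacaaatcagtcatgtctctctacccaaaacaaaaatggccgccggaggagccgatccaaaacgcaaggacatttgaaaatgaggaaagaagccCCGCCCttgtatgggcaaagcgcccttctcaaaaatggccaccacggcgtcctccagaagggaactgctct
Exosc6, nearest region: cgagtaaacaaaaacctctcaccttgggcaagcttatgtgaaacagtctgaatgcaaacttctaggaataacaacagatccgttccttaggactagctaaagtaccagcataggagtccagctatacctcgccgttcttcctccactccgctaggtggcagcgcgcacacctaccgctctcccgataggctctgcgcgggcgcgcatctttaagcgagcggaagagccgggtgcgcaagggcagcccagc
S100a4, nearest region: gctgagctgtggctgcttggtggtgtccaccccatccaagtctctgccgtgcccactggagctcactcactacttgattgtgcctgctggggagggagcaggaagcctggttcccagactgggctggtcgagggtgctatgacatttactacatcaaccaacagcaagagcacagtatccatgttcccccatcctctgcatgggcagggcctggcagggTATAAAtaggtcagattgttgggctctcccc

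The S100a4 window had 2 CG dinucleotides and a TATA box, that of Cuedc2 had 11 and a GC box, and that of Exosc6 had 17 and no match. Over genes whose RefSeq start lay within 100 bp of the TSS in the table, the 300-base window (250 bases before the start and 50 after) held a GC box in 71.9% of the 285 genes with at least 2 promoter regions, in 68.4% of the 5723 genes with 1 and in 35.7% of all 32851 RefSeq windows. A TATA box was present in 7.72%, 6.88% and 13.6% of these 3 sets, a CCAAT box in 37.5%, 41.5% and 37.4%, and an ETS site in 14.4%, 20.5% and 8.86%. An AP-1 site was found in 4.21%, 4.91% and 7.81%, and a cAMP response element in 3.51%, 3.72% and 1.79%. The median window of the same 3 sets had 23, 22 and 7 CG dinucleotides, so the windows of genes with several regions were close in base content to those of genes with 1. Several RefSeq starts were listed for 21.8% of the genes with at least 2 promoter regions and for 18% of those with 1.

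The farther region was usually the smaller of the pair. Its median normalised signal, over the mean of 6 libraries, was 48.8 (quartiles 25.8 and 94.8), against 218 (99.2 and 380) for the nearest regions and 286.5 (162 and 452) for the 9020 promoters of genes with a single promoter region. Median lengths were 279, 749 and 871 bp. Divided by length, the median signal was 185 per kb in farther regions, 307 in nearest regions and 317 in single-region promoters, so the sets lay closer together per kb than in signal per region. Within genes, the farther region had a median of 21.6% of the signal of the nearest region (quartiles 10.4% and 67.6%) and 61.3% of its signal per kb. It was under 10% of the nearest region in 121 genes, within 2-fold of it in 94 and at least 2-fold above it in 57.

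The order was mostly the same in all libraries. The farther region was weaker in all 6 libraries in 384 genes and stronger in all 6 in 74, and in 41 genes the order differed between libraries. By the mean over libraries it was stronger in 95 genes (19.0%), and in 79 of these it was also the longer region, against 22 of the 404 genes in which it was weaker.

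**Figure D1:**
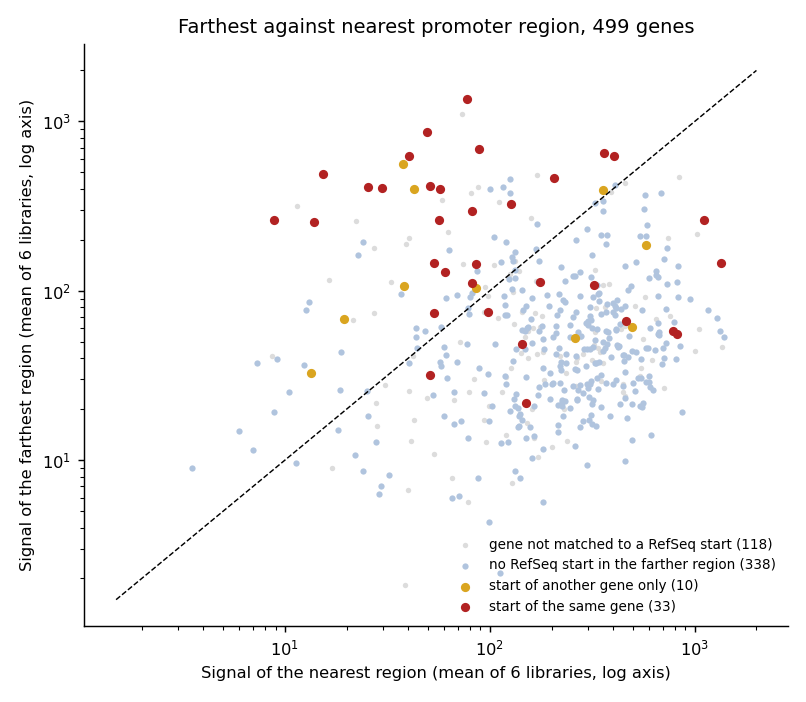
Mean normalised signal over 6 libraries of the farthest region (vertical axis) against the nearest region (horizontal axis), both log axes, 1 point per gene for 499 genes, with colours for the RefSeq starts that the farthest region holds and a dashed line of equal signal. Most points lie below the line, and 22 of the 33 genes whose farther region held a start of the same gene lie above it.

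The regions of a pair lay a median of 276 bp apart, edge to edge (quartiles 174.5 and 412, range 50 to 1296 bp). The centre of the farther region was a median of 798 bp from the TSS and that of the nearest 119 bp. In 186 genes (37.3%) the farther region lay downstream of the TSS and the nearest upstream, in 132 the reverse held, in 132 both lay downstream and in 49 both lay upstream. The farther region covered the TSS in 10 genes and the nearest in 441 (88.4%), a share close to the 90.7% of single-region promoters. In 48 genes neither region covered it. Among the widest pairs, Rreb1, a zinc finger transcription factor gene, had 1296 bp between its regions, Aebp2, a gene of a Polycomb cofactor, 1213 bp, and Sdc4, which encodes the proteoglycan syndecan-4, 1176 bp. The narrowest were Igf2r (mannose 6-phosphate receptor) and Mmp15 (a membrane-type matrix metalloproteinase) with 50 bp each, and Zbtb7c with 51 bp.

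Farther regions that held an annotated start of their own gene had a higher median signal than those with none. RefSeq starts could be matched for 381 genes, 13 of them by a synonym. A start of the same gene lay in 33 of 391 farther regions (8.44%), in 312 of 381 nearest regions (81.9%) and in 6464 of 7184 single-region promoters (90.0%). These 33 farther regions had a median signal of 260.5, a median length of 778 bp and a median of 2.13 times the signal of the nearest region, and 22 of them were stronger than it. The other 11 were weaker, among them that of Larp1b at 0.0677 of its nearest region, picked after its values were seen as the weakest. Some of the 33, such as those of Rprd2 and Ppia, covered the TSS and were the farther region by their centre alone. The 10 farther regions that held only the start of another gene had a median signal of 105, 1.83 times the nearest region. The 348 with no RefSeq start had a median signal of 45.4 and a median length of 246 bp, at 17.9% of the nearest region, and 44 (12.6%) were stronger than it.

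The 5 genes with the highest farther-to-nearest signal were Rprd2, whose protein binds the tail of RNA polymerase II, at 31.8-fold, Patz1, a POZ and zinc finger transcription factor gene, at 29.6-fold, Zbtb10, of the same class, at 27.4-fold, Wdr37, which encodes a WD repeat protein, at 18.4-fold, and Fbxo11, a ubiquitin ligase substrate receptor gene, at 17.5-fold. The farther regions of Rprd2, Patz1, Wdr37 and Fbxo11 held a RefSeq start of the gene, and Zbtb10 was among the genes not matched. The farther region of Rprd2 (chr3:95818679-95820108, 1430 bp, centre 531 bp upstream) had 583, 611 and 486 with the Actg1 guide, against 460, 420 and 369 with the GFP guide. It covers the TSS of the gene (position 95818863), which the nearest region does not, and is the farther one by its centre alone. Rprd2's nearest region (chr3:95818368-95818578) had 7, 28 and 22 with the Actg1 guide, against 16, 7 and 12 with the GFP guide. The farther region was higher in every Actg1 guide library (log2 fold change 0.47, SE 0.0747, limma adjusted p = 2.30e-06), and this call ended without GFP guide replicate 3 (0.34, limma adjusted p = 0.0598). The nearest region overlapped between guides (limma adjusted p = 0.361). The farther region of Patz1 (chr11:3289038-3290484) had 278, 269 and 286 with the Actg1 guide, against 240, 249 and 245 with the GFP guide, and did not pass (log2 fold change 0.18, limma adjusted p = 0.0724). Its nearest region stayed below the filter with 9, 7 and 14 with the Actg1 guide, against 7, 7 and 9 with the GFP guide. Wdr37 had 244, 238 and 249 in its farther region with the Actg1 guide, against 282, 257 and 254 with the GFP guide, and did not pass (limma adjusted p = 0.346). Fbxo11 had 1295, 1195 and 1331 in its farther region with the Actg1 guide, against 1442, 1359 and 1482 with the GFP guide (log2 fold change -0.18, limma adjusted p = 0.000853), a call that ended without GFP guide replicate 3 (-0.14, limma adjusted p = 0.142). Its nearest region had 93, 91 and 80 with the Actg1 guide, against 62, 63 and 73 with the GFP guide (0.37, limma adjusted p = 0.0355), which ended after leaving out any 1 of 4 libraries (limma adjusted p from 0.0510 to 0.117). The ratio of Fbxo11 fell by 0.55 (limma adjusted p = 0.00823), with no overlap in either region. Zbtb10 passed in neither region.

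At the low end stood Zc4h2, a zinc finger protein gene, with 0.0194 of the nearest region's signal, Sec63, which serves protein entry into the endoplasmic reticulum (0.0216), the RNA-binding protein gene Syncrip (0.0220), Twist1, a transcription factor gene of mesenchymal cells (0.0230), and Larp4b, a La-related RNA-binding protein gene (0.0266). Their nearest regions were large, at 112 to 871, and their farther regions held 2.17 to 19.2. In 4 of the 5 genes the nearest region fell with the Actg1 guide. Among all 492 tested nearest regions 100 fell and 54 rose, and among the 117 with a signal of 400 or more 42 fell and 11 rose. Zc4h2 lies on the X chromosome, where 12 of 19 tested nearest regions fell and 1 rose. Whether a fall of the nearest region goes with a low ratio was not tested. Twist1 had 567, 514 and 601 in its nearest region with the Actg1 guide, against 657, 663 and 656 with the GFP guide (log2 fold change -0.23, SE 0.0607, limma adjusted p = 0.00178), with no overlap. The falls of Zc4h2 (-0.37), Syncrip (-0.17) and Larp4b (-0.27) had limma adjusted p = 0.0128, 0.00479 and 0.000579. Without GFP guide replicate 3 all 4 calls ended, at limma adjusted p = 0.0964, 0.0906, 0.0847 and 0.0729 for Zc4h2, Syncrip, Twist1 and Larp4b. Sec63 had -0.09 (limma adjusted p = 0.268).

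Over all genes, the farther region stood slightly higher relative to the nearest in the Actg1 guide libraries, at the smallest p this design allows. The median log2 ratio of the farthest over the nearest region was -2.10, -2.09 and -2.12 in the Actg1 guide libraries, against -2.26, -2.19 and -2.23 in the GFP guide libraries, with no overlap. The means were -2.10 ± 0.0116 (SD, n = 3) and -2.21 ± 0.0231 (SD, n = 2), a difference of 0.11 on the log2 scale (two-sided exact permutation p = 0.1, 0.133 after adjustment over 4 values). The farthest regions held 25.8%, 26% and 25.8% of the summed signal of both regions in the Actg1 guide libraries, against 24.6%, 24.7% and 24.6% in the GFP guide libraries, a difference of 1.24 percentage points (exact permutation p = 0.1). The median of the farthest regions, set against that of single-region promoters, was 0.10 higher in log2 (exact permutation p = 0.1), and that of the nearest regions differed by 0.01 (exact permutation p = 0.8) with overlapping libraries. Cyclic loess scaling, which evens out trends with signal level between libraries, reduced the first of these differences to 0.06 (exact permutation p = 0.1) and the comparison of farthest with single-region promoters to 0.04 (exact permutation p = 0.2).

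**Figure D2:**
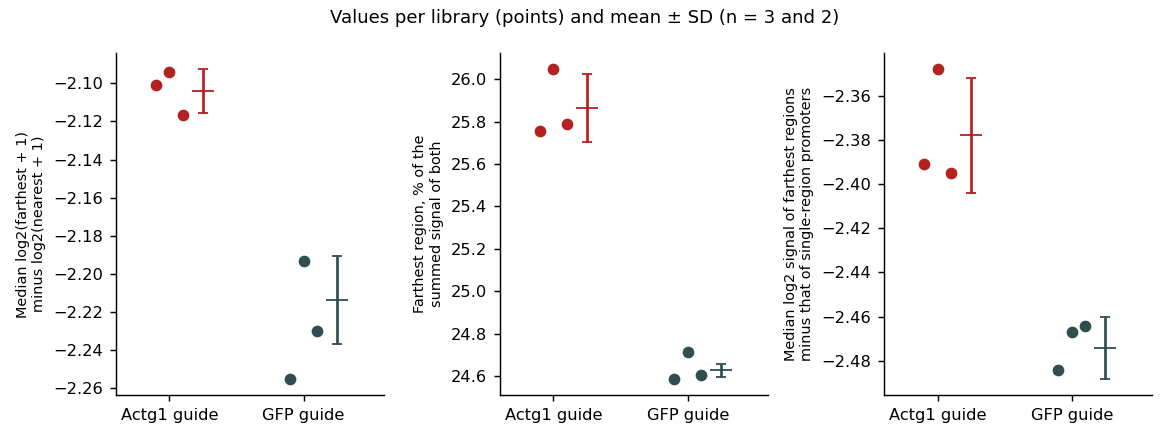
Values of each library over the genes with at least 2 promoter regions: the median log2 ratio of farthest over nearest signal, the percentage of the summed pair signal in the farthest region, and the median log2 signal of the farthest regions minus that of single-region promoters, for the Actg1 guide (left) and the GFP guide (right). Points are libraries and bars are mean ± SD (n = 3 and 2, with GFP guide replicates 1 and 2 averaged), and in each panel the 3 Actg1 guide libraries lie above the GFP guide libraries.

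Region by region, a smaller share of farther regions fell, and a smaller share of nearest regions rose, than of all tested regions. The shares of farther regions that rose and of nearest regions that fell were close to those of all tested regions. A region was called at a Benjamini-Hochberg adjusted p under 0.05 by limma, fitted over all 61327 tested regions, of which 41.3% were called (20.6% higher and 20.7% lower with the Actg1 guide). Among the 985 tested regions of genes with several promoter regions, 153 rose and 143 fell, so 30.1% were called, near the 31.3% of single-region promoters and below that of all regions. Of 493 tested farther regions, 99 rose (20.1%) and 43 fell (8.72%), with a median log2 fold change of 0.11. Of 492 tested nearest regions, 54 rose (11%) and 100 fell (20.3%), with a median of -0.04. Single-region promoters resembled the nearest regions, with 12.6% higher, 18.7% lower and a median of -0.03, and regions of protein-coding genes centred beyond 1000 and up to 2000 bp from the TSS had 21.5% higher, 13.1% lower and a median of 0.06. After cyclic loess scaling the nearest regions split into 73 higher and 83 lower, and the farther regions into 94 and 45. Without GFP guide replicate 3 the farther regions had 33 higher and 13 lower and the nearest regions 23 higher and 27 lower.

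Changes were mostly small. A 2-fold change among the called farther regions was reached by 14 that rose and 11 that fell of 493 tested, and among nearest regions by 2 and 3 of 492. Of all 61327 tested regions, 3760 rose and 3701 fell with such a change, larger shares than in either set. The 3 Actg1 guide libraries all lay above the 3 GFP guide libraries in 127 farther and 80 nearest regions, and all below in 54 farther and 130 nearest regions. Over all tested regions, 25.2% lay entirely above and 25.5% entirely below. Farther regions upstream of the TSS were called in 38.1% of 181 (48 higher, 21 lower) and those downstream in 23.4% of 312 (51 higher, 22 lower).

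The difference between farther and nearest regions was seen at low and middle signal. Farther regions with a mean signal under 25 had a median log2 fold change of 0.26, against 0.02 for nearest regions and -0.05 for single-region promoters of that signal. Between 25 and 50 the 3 medians were 0.13, -0.04 and -0.08, between 50 and 100 they were 0.13, -0.04 and -0.05, and between 100 and 200 they were 0.08, 0.01 and -0.01. Regions of protein-coding genes centred beyond 1000 and up to 2000 bp from the TSS had medians of 0.07, 0.09, 0.12 and 0.05 in the same 4 classes, above those of nearest and single-region promoters too. From 200 to 400 the farther, nearest and single-region medians were between -0.02 and -0.01, and from 400 on they were -0.04, -0.09 and -0.05. Farther regions that were weaker than the nearest region had 84 higher and 25 lower of 396 tested (median 0.16), and those that were stronger had 15 higher and 18 lower of 97 (median -0.01). The 335 tested farther regions with no RefSeq start had 71 higher and 23 lower (median 0.13), and the 33 with a start of their own gene had 5 higher and 8 lower (median -0.03). The former also had less signal, a median of 45.4 against 260.5. Among all tested regions 20.6% rose and 20.7% fell. The share of rises in the weaker farther regions (21.2%) was close to that, and their share of falls (6.31%) was smaller.

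**Figure D3:**
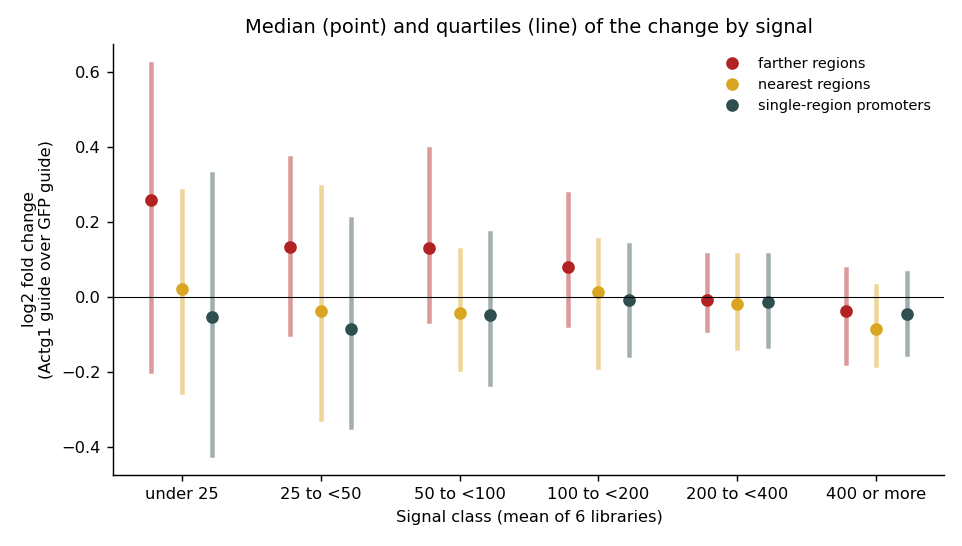
Median (point) and quartiles (line) of the log2 fold change, Actg1 guide over GFP guide, in 6 classes of mean signal for farther regions, nearest regions and single-region promoters. The farther regions lie highest in the 4 classes under a signal of 200, and the 3 sets lie together from 200 to 400.

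For the ratio within each gene, falls were a smaller share than among all same-gene pairs, and rises were not a larger one. Limma was fitted to the log2 ratio of farther over nearest signal in all 5036 tested pairs of regions that share a gene anywhere in the table, and 34% of these pairs were called (20.2% with a higher ratio, 13.8% with a lower one). Of the 476 tested genes with several promoter regions, the ratio rose in 86 (18.1%) and fell in 30 (6.30%), and its median change was 0.16, against 0.06 in the other 4560 pairs. Where the farther region was the weaker, the ratio rose in 74 and fell in 18 of 388 genes, and where it was the stronger it rose in 12 and fell in 12 of 88. Pairs under 150 bp apart were called in 11.6% of 86 genes, those 150 to 350 bp apart in 24.2% of 227 and those over 350 bp apart in 31.3% of 163. Without GFP guide replicate 3 the ratio rose in 44 and fell in 18 genes.

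Calls in both regions of a gene were uncommon. Of 476 genes, 15 had both regions higher, 14 had both lower, 14 had the farther region higher and the nearest lower, and 4 the reverse. In 66 genes the farther region alone was called higher and in 25 lower, in 34 the nearest region alone was called higher and in 70 lower, and in 234 neither was called. Calls were made in 28.8% of all tested farther and 31.3% of all tested nearest regions, against 41.3% of all tested regions. Whether calls in the regions of a gene are linked was not tested.

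**Figure D4:**
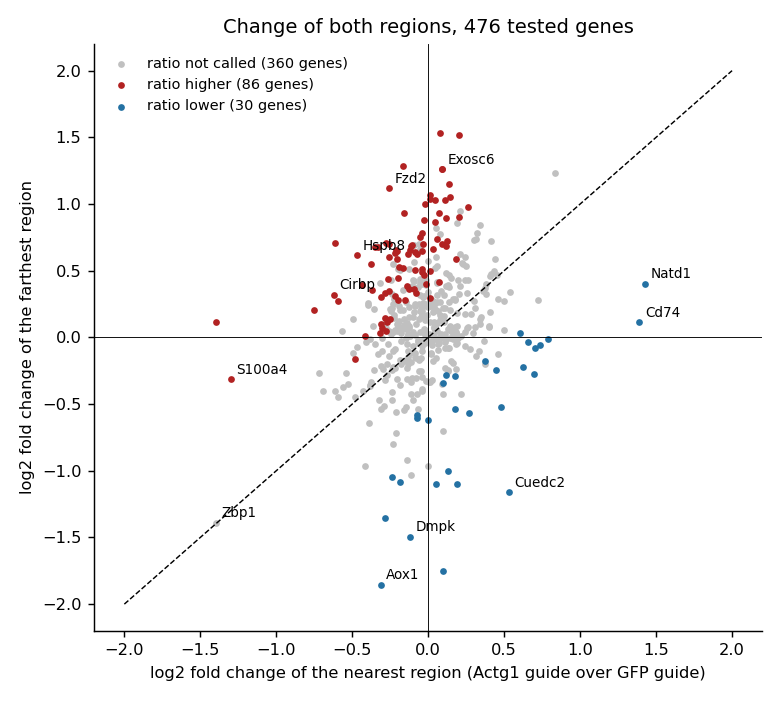
Log2 fold change, Actg1 guide over GFP guide, of the farthest region (vertical axis) against the nearest region (horizontal axis) for 476 genes, coloured by the call on their ratio, with a dashed line of equal change. The 86 genes with a higher ratio lie above the line and the 30 with a lower ratio below it, and Cuedc2 lies in the quadrant where the farther region fell and the nearest rose.

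Among the 8 largest rises of the ratio, the change was mostly in the farther region. Exosc6, a core subunit gene of the RNA exosome, which degrades RNA from its 3′ end, was the strongest by test. Its farther region (chr8:111055241-111055601, 918 bp upstream) had 165, 142 and 155 with the Actg1 guide, against 52, 57 and 74 with the GFP guide (log2 fold change 1.26 with an SE of 0.132, limma adjusted p = 2.42e-10). The nearest region (chr8:111056118-111057144), which holds the start shown above, had 347, 335 and 357 with the Actg1 guide, against 322, 322 and 328 with the GFP guide (0.09, limma adjusted p = 0.338). The farther region rose 2.4-fold without overlap and the nearest did not pass, and the ratio rose by 1.17 on the log2 scale (SE 0.150, limma adjusted p = 1.55e-09). Exosc6 was the only one of 44 listed mRNA decay factors with a promoter region that had more than 1. The list leaves out Zfp36l2, named below, which also had several.

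Fzd2, a Wnt receptor gene, had 64, 62 and 48 in its farther region with the Actg1 guide, against 38, 18 and 24 with the GFP guide. Its nearest region had 264, 260 and 248 with the Actg1 guide, against 324, 322 and 294 with the GFP guide. The farther region rose (log2 fold change 1.12) as the nearest fell (-0.26), both without overlap, with limma adjusted p = 1.29e-05 and 0.00894. Sf3a1, which encodes a subunit of the spliceosomal U2 particle, had 36, 31 and 39 in its farther region with the Actg1 guide, against 19, 11 and 9 with the GFP guide (log2 fold change 1.52, limma adjusted p = 1.55e-05). Ccdc117, a coiled-coil protein gene, rose by 1.53 in its farther region and Ascc2, a gene of the ASC-1 complex, by 1.27 (limma adjusted p = 3.56e-05 and 0.000320), and neither nearest region passed. Tmem160 rose by 1.29 in its farther region (limma adjusted p = 0.000231), a call that ended without GFP guide replicate 3 (0.99, limma adjusted p = 0.0524). B4galt4, a galactosyltransferase gene, had a ratio higher by 1.32 (limma adjusted p = 0.000507), which ended likewise (1.0, limma adjusted p = 0.0931). Trpv2, a cation channel gene with a nearest region of only 6, 8 and 1 with the Actg1 guide, against 14, 13 and 11 with the GFP guide, had the largest rise, 1.51 (limma adjusted p = 0.0483), and it did not pass after leaving out any 1 of 4 libraries, with limma adjusted p from 0.0571 to 0.218. That nearest region reached the minimum signal of 10 in GFP guide libraries only, so it entered the fit through the group in which it is high, and its value supports nothing here. The same held for 1 farther region of another gene, and 1 farther region entered through Actg1 guide libraries alone.

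Of these 8 genes, 5 lay on chromosome 11, and these include Trpv2, whose value supports nothing here. Of the 5, 3 (Sf3a1, Ascc2 and Ccdc117) lay within the first 10 Mb of the chromosome. All 7 genes with several promoter regions in that stretch had a farther region with a change above 0 (median 0.72), and so did all 6 tested nearest regions (median 0.22). Of the 242 tested regions of any kind there, 68.2% had a change above 0 (median 0.18), against 55.9% over chromosome 11 and 49.4% over all regions. This stretch was picked after its values were seen, and the part of the chromosome in these results was not tested. Copy number was not analysed here, so more copies of a stretch and more signal per copy cannot be told apart.

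Among the 8 largest falls, Cuedc2 changed in both regions and in opposite directions. This gene encodes a ubiquitin-binding CUE domain protein. Its farther region (chr19:46339348-46339979, 962 bp upstream) had 68, 59 and 52 with the Actg1 guide, against 122, 137 and 138 with the GFP guide (log2 fold change -1.16, SE 0.145, limma adjusted p = 1.62e-08). The nearest region (chr19:46338312-46339085), over the start printed above, had 259, 269 and 243 with the Actg1 guide, against 166, 201 and 172 with the GFP guide (0.53, SE 0.0898, limma adjusted p = 6.44e-06). Neither region overlapped between guides, and the ratio fell by 1.69 (SE 0.168, limma adjusted p = 2.39e-13), the smallest p among the named genes.

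In the other 7 the change was mostly in 1 region. Dmpk, the myotonic dystrophy protein kinase gene, had 22, 18 and 22 in its farther region with the Actg1 guide, against 61, 67 and 56 with the GFP guide (log2 fold change -1.50, limma adjusted p = 6.93e-07). In the nearest region of Dmpk the values were 264, 251 and 246 with the Actg1 guide, against 253, 270 and 291 with the GFP guide, and the guides overlapped. The summed promoter signal of the 5 striated muscle markers, of which Dmpk is one, was 382 to 394 with the Actg1 guide, against 513 to 544 with the GFP guide, and its part in this result was not tested. Aox1, an aldehyde oxidase gene, had 13, 12 and 11 in its farther region with the Actg1 guide, against 41, 45 and 49 with the GFP guide (-1.85, limma adjusted p = 6.16e-07), the largest fall of a farther region among the named genes. Its nearest region fell less (-0.31, limma adjusted p = 0.000496), a call that ended without GFP guide replicate 3 (-0.26, limma adjusted p = 0.0614). The farther regions of Acyp1, an acylphosphatase gene, of Arhgdib and of Pitpnc1, a phosphatidylinositol transfer protein gene, fell by 1.10, 1.10 and 1.0 on the log2 scale (limma adjusted p = 1.20e-07, 0.000106 and 0.000150), and their nearest regions did not pass. The farther region of Smim11a, a small membrane protein gene, had 2, 9 and 10 with the Actg1 guide, against 25, 30 and 18 with the GFP guide (-1.75, limma adjusted p = 0.00153), and ended without GFP guide replicate 3 (-2.04, limma adjusted p = 0.0758).

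Cd74, the gene of the invariant chain of MHC class II, reached a lower ratio by a rise of its nearest region. Its farther region had 18, 12 and 20 with the Actg1 guide, against 13, 17 and 15 with the GFP guide, and overlapped. The nearest region of Cd74 had 39, 38 and 46 with the Actg1 guide, against 19, 13 and 14 with the GFP guide (log2 fold change 1.39 with an SE of 0.240, limma adjusted p = 8.46e-06). The lower ratio (-1.28, limma adjusted p = 0.00508) ended without GFP guide replicate 3 (-1.19, limma adjusted p = 0.0861). Cd74 is 1 of 3 haematopoietic markers with a promoter region, whose summed signal was 154 to 172 with the Actg1 guide, against 78 to 91 with the GFP guide, and Ptprc, Cd3e and Spi1 had none.

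**Figure D5:**
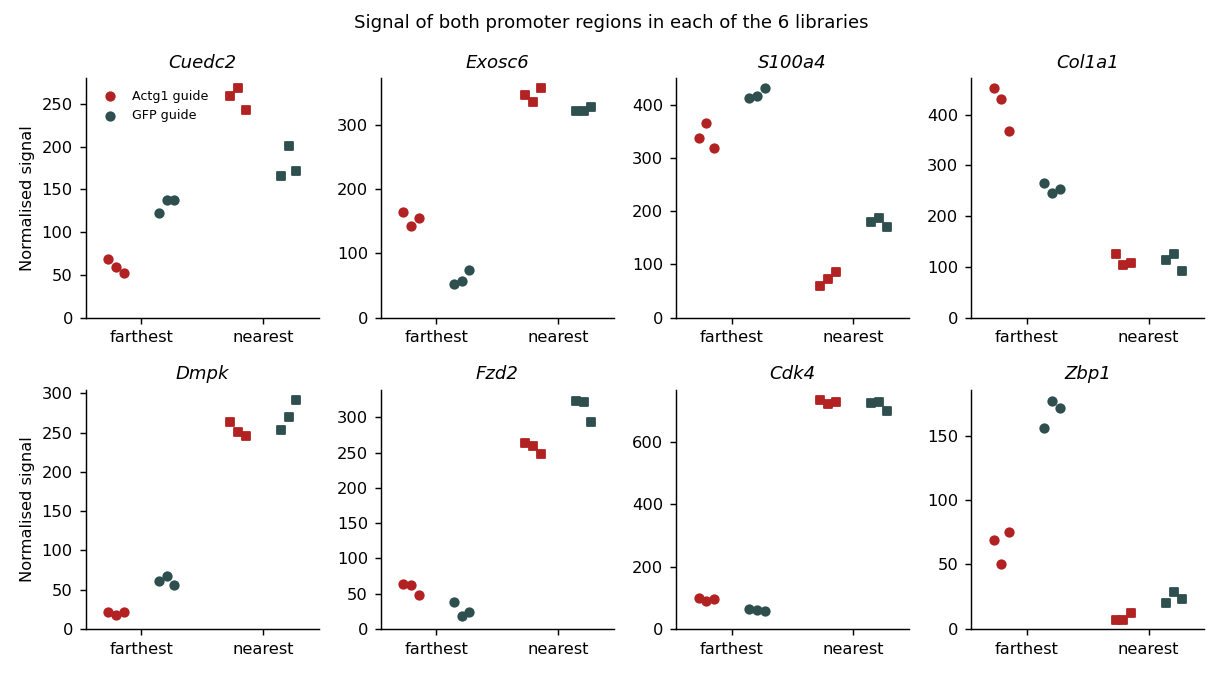
Normalised signal in each library of the farthest and the nearest promoter region of 8 genes, with the Actg1 guide left of the GFP guide in each pair and every axis starting at 0. In Exosc6, Fzd2, Col1a1 and Cdk4 the farthest region is higher with the Actg1 guide, in Dmpk it is lower, in Cuedc2 the regions move in opposite directions, and in S100a4 and Zbp1 both are lower.

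Opposite changes in 4 further genes ran the other way, with the farther region higher and the nearest lower. Hspb8, a small heat shock protein gene, had 69, 72 and 70 in its farther region with the Actg1 guide, against 46, 55 and 41 with the GFP guide. At its nearest region the signal was 117, 101 and 145 with the Actg1 guide, against 163, 163 and 169 with the GFP guide. The log2 fold changes were 0.62 and -0.47 (limma adjusted p = 0.00243 and 0.00172) with no overlap in either region. Epha2, an ephrin receptor gene, had 0.68 and -0.35 (limma adjusted p = 0.00236 and 0.00549), Cirbp, a cold-inducible RNA-binding protein gene, 0.32 and -0.62 (0.00462 and 0.000272), and Samd1, whose protein binds CpG islands, 0.34 and -0.29 (0.0189 and 0.00252). Without GFP guide replicate 3 the calls ended in both regions of Hspb8 (limma adjusted p = 0.0960 and 0.125), Epha2 (0.0885 and 0.115) and Cirbp (0.124 and 0.105) and in the farther region of Samd1 (0.244), which also ended without Actg1 guide replicate 1 (0.124) or 3 (0.0809). The ratio calls of Hspb8, Epha2, Cirbp and Samd1 held without each library in turn.

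Both regions moved together in another 5 genes, and there the ratio did not pass. Zbp1, an interferon-induced sensor gene of Z-form nucleic acids, had 69, 50 and 75 in its farther region with the Actg1 guide, against 156, 177 and 171 with the GFP guide. The nearest region held 7, 7 and 12 with the Actg1 guide, against 20, 29 and 23 with the GFP guide. The regions fell by nearly the same amount (log2 fold changes -1.39 and -1.40, limma adjusted p = 1.96e-10 and 0.00166), and the call on the nearest region ended without GFP guide replicate 3 (-1.44, limma adjusted p = 0.0631). Orm1, an acute-phase protein gene, rose in both (1.23 and 0.83), as did Znhit3, which has a role in the assembly of small nucleolar particles (0.59 and 0.44), and Aebp1, a matrix protein gene (0.50 and 0.43). Amot, the gene of angiomotin, fell in both (-0.45 and -0.48). Without GFP guide replicate 3, calls ended in the nearest region of Amot (limma adjusted p = 0.0532) and in both regions of Znhit3 (0.0694 and 0.216) and Aebp1 (0.115 and 0.134). The call on the nearest region of Orm1 ended without Actg1 guide replicate 1 (0.0709), as did that on the farther region of Aebp1 (0.0921), and that on the nearest region of Znhit3 ended without Actg1 guide replicate 2 (0.0504) or 3 (0.0564).

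Natd1, chosen after its values were seen because a RefSeq start lies in its farther region, rose in both regions by unequal amounts. Its farther region had 163, 164 and 158 with the Actg1 guide, against 134, 134 and 111 with the GFP guide. The nearest had 128, 137 and 111 with the Actg1 guide, against 44, 51 and 44 with the GFP guide. The log2 fold changes were 0.40 and 1.43 (limma adjusted p = 0.00294 and 7.21e-11), so the ratio fell by 1.03 (limma adjusted p = 5.87e-07). Natd1 lay outside the rule for named genes, and its calls were not followed through the fits that leave out a library.

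Of 80 actin cytoskeleton genes with a promoter region, 6 had several. Their farther regions gave 1 rise and 2 falls and their nearest regions 1 rise and 3 falls, with medians of -0.09 and -0.24, against medians of 0.11 and -0.04 over all farther and nearest regions. Over all tested regions 20.6% were called higher and 20.7% lower, and these counts are too small to set the group apart. Pfn1, the gene of profilin, which delivers actin monomers to growing filaments, had 58, 55 and 58 in its farther region with the Actg1 guide, against 51, 51 and 59 with the GFP guide, and overlapped. Pfn1's nearest region rose without overlap, with 775, 817 and 722 with the Actg1 guide, against 531, 576 and 538 with the GFP guide (log2 fold change 0.50 with an SE of 0.0565, limma adjusted p = 1.98e-09). Cap1, whose protein recycles actin monomers, went the other way, with 754, 717 and 712 in its nearest region with the Actg1 guide, against 876, 903 and 901 with the GFP guide (-0.30, limma adjusted p = 6.27e-06). The nearest region of Msn, which encodes the membrane linker moesin, fell by 0.35 on the log2 scale (limma adjusted p = 0.000138). Tagln, the gene of the actin-binding protein transgelin, fell in both regions (-0.40 in the farther and -0.43 in the nearest, limma adjusted p = 0.0124 and 0.00260), and its farther call ended without GFP guide replicate 3 (-0.38, limma adjusted p = 0.128) or 1 (-0.33, 0.0606). The farther region of Capg, a filament capping protein gene, fell by 1.08 (limma adjusted p = 0.000657) and that of Flnc, the gene of filamin C, rose by 0.47 (limma adjusted p = 0.0126). Capg and Flnc lay outside the rule for named genes and complete this short list. Their calls were not followed through the fits that leave out a library.

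Among extracellular matrix and fibroblast marker genes, Col1a1 and S100a4 had regions that changed by unequal amounts. Col1a1, the gene of the alpha-1 chain of type I collagen, had its stronger region downstream of the TSS (chr11:94936582-94937512, 823 bp), with 453, 430 and 367 with the Actg1 guide, against 266, 246 and 254 with the GFP guide (log2 fold change 0.70, SE 0.0788, limma adjusted p = 1.49e-09). The nearest region (chr11:94936081-94936327), which covers the TSS, had 125, 104 and 107 with the Actg1 guide, against 113, 125 and 92 with the GFP guide, and overlapped. S100a4, a calcium-binding protein gene of fibroblasts, fell in both regions, and more so at the start with the TATA box shown above. Its farther region (chr3:90604137-90604925) had 337, 365 and 319 with the Actg1 guide, against 412, 417 and 431 with the GFP guide (-0.31, limma adjusted p = 0.000510), a call that ended without GFP guide replicate 3 (-0.29, limma adjusted p = 0.0632). Its nearest region (chr3:90603579-90603867) had 59, 72 and 86 with the Actg1 guide, against 180, 187 and 171 with the GFP guide (-1.30, SE 0.136, limma adjusted p = 3.01e-10). The ratio of S100a4 rose by 0.98 (limma adjusted p = 4.69e-07). The lower summed signal of the fibroblast markers given above includes S100a4, Twist1 and Col1a1, and its part in these results was not tested.

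Of 43 matrix genes with a promoter region, 4 had several. Their farther regions gave 1 rise (Col1a1) and 0 falls, and 0 of their nearest regions passed. With 41.3% of all tested regions called, so few regions do not set the group apart. The ratio of Loxl1, a lysyl oxidase-like gene of elastic fibre assembly, rose by 0.44 (limma adjusted p = 0.0359), and this call ended after loess scaling (0.40, limma adjusted p = 0.0577) and after leaving out any 1 of 4 libraries (limma adjusted p from 0.0607 to 0.193). Lamb2, a laminin chain gene, had 129, 153 and 147 in its farther region with the Actg1 guide, against 153, 155 and 155 with the GFP guide. Col8a1, a collagen chain gene, had 161, 162 and 166 with the Actg1 guide, against 181, 190 and 180 with the GFP guide. Neither passed (limma adjusted p = 0.425 and 0.190).

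Among 59 cell cycle and DNA replication genes with a promoter region, 6 had several, and 0 of their nearest regions passed. The farther regions gave 1 rise and 2 falls, against 20.6% higher and 20.7% lower over all tested regions, and these counts are too small to compare. Cdk4, which drives passage through G1, had 100, 89 and 95 in its upstream farther region (chr10:127062607-127062773) with the Actg1 guide, against 64, 62 and 56 with the GFP guide (log2 fold change 0.66, SE 0.144, limma adjusted p = 0.000250). The nearest region of Cdk4 stood at 734, 723 and 728 in its nearest region with the Actg1 guide, against 727, 728 and 700 with the GFP guide. Chek1, a DNA damage checkpoint kinase gene, had 297, 289 and 299 in its farther region with the Actg1 guide, against 363, 349 and 363 with the GFP guide (-0.28, limma adjusted p = 0.00203), and the call ended without GFP guide replicate 3 (-0.27, limma adjusted p = 0.0581). Ccnd2, the gene of cyclin D2, had 124, 103 and 112 with the Actg1 guide, against 174, 183 and 165 with the GFP guide (-0.60, limma adjusted p = 3.95e-05). Cenpe, a kinetochore motor gene, was at 0.987-fold in its farther region and overlapped (limma adjusted p = 0.959).

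Of the 3 early response transcription factor genes with several promoter regions (of 32 with any), Id2, an inhibitor of helix-loop-helix factors, had 429, 426 and 414 in its farther region with the Actg1 guide, against 534, 476 and 502 with the GFP guide (log2 fold change -0.25, limma adjusted p = 0.00148). Klf4, a Krüppel-like factor gene, had 31, 39 and 27 with the Actg1 guide, against 22, 14 and 22 with the GFP guide (0.66, limma adjusted p = 0.0305), a call that ended after leaving out any 1 of 4 libraries (limma adjusted p from 0.0699 to 0.125). Myc, which is known for separate start sites and stood in that list too, had 52, 54 and 43 in its farther region with the Actg1 guide, against 43, 38 and 44 with the GFP guide. Its nearest region had 353, 339 and 368 with the Actg1 guide, against 322, 312 and 336 with the GFP guide. Neither passed (limma adjusted p = 0.358 and 0.224). Cux1, the other gene with a textbook record of several promoters, was at -0.05 in its farther and 0.07 in its nearest region on the log2 scale, and neither passed (limma adjusted p = 0.883 and 0.571).

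Among 151 solute carrier genes with a promoter region, 12 had several, with 4 rises and 0 falls in farther regions and 4 rises and 2 falls in nearest regions. Over all tested regions 20.6% rose and 20.7% fell, and counts this small do not set the group apart. Slc38a2, a neutral amino acid transporter gene, had 337, 346 and 314 in its farther region with the Actg1 guide, against 305, 319 and 348 with the GFP guide. Its nearest region had 289, 287 and 271 with the Actg1 guide, against 380, 342 and 392 with the GFP guide. The nearest region fell (log2 fold change -0.41, limma adjusted p = 2.59e-05) and the farther overlapped (0.01). Slc25a39, a mitochondrial carrier gene, rose by 0.19 in its farther region (limma adjusted p = 0.0328), a call that ended after leaving out any 1 of 4 libraries (limma adjusted p from 0.0504 to 0.0919), and by 0.41 in its nearest (limma adjusted p = 1.75e-05). The nearest region of Slc12a2, a sodium, potassium and chloride cotransporter gene, fell by 0.19 on the log2 scale (limma adjusted p = 0.00749), which ended without GFP guide replicate 3 (-0.19, limma adjusted p = 0.0803). Slc10a7 had -0.25 and 0.13 and passed in neither.

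In other functional groups the genes with several promoter regions were 0 of 71 histone and chromatin modifier genes, 0 of 67 ribosomal protein genes, 1 of 122 genes of the mitochondrial ribosome and respiratory chain, 1 of 69 proteasome and ubiquitin conjugation genes, 2 of 58 splicing genes, 2 of 55 translation factor genes, 2 of 30 interferon response genes and 6 of 191 Zfp genes, against 5.24% of all protein-coding genes with a promoter region. Hnrnpd, an RNA-binding protein gene of the splicing list, had 184, 160 and 193 in its farther region with the Actg1 guide, against 189, 149 and 197 with the GFP guide, and passed in neither region. Eif4a1, an RNA helicase gene of translation initiation, had 218, 197 and 209 with the Actg1 guide, against 207, 217 and 207 with the GFP guide (limma adjusted p = 0.936). Eif4e3 had a farther region of 0 to 3 in all libraries. Ube2m, a NEDD8-conjugating enzyme gene, passed in neither region. The nearest region of Mrpl20, a mitochondrial ribosomal protein gene, had 42, 23 and 22 with the Actg1 guide, against 16, 17 and 16 with the GFP guide (0.74, limma adjusted p = 0.0320), which ended without Actg1 guide replicate 1 (0.45, limma adjusted p = 0.250) or GFP guide replicate 3 (0.72, 0.225). Gbp2, an interferon-induced GTPase gene, rose by 0.43 in its farther region (limma adjusted p = 0.0201), which ended after leaving out any 1 of 4 libraries (limma adjusted p from 0.0596 to 0.120). Of the Zfp genes, Zfp39 rose by 0.57 in its farther region (limma adjusted p = 0.0323) and Zfp52 fell by 0.32 in its nearest (limma adjusted p = 0.0115), both of which ended without GFP guide replicate 2 (0.0619 and 0.101) or 3 (0.175 and 0.134). Zfp39 also ended after loess scaling (0.0502) and without Actg1 guide replicate 1 (0.261) or 3 (0.0896). Zfp36l2, an mRNA-destabilising protein gene, and Zfp747 passed in neither region.

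Of the 14 genes with 3 promoter regions, the 5 with the most signal were Arf4, Thbs3, Hexim1, Gadd45g and Rab5if. Gadd45g, a growth arrest and stress response gene, rose in each of its 3 regions. Its middle region had 77, 76 and 86 with the Actg1 guide, against 45, 38 and 40 with the GFP guide (log2 fold change 0.95, SE 0.162, limma adjusted p = 7.07e-06), and its farthest and nearest regions rose by 0.38 and 0.21 (limma adjusted p = 0.0227 and 0.0298). The calls on the farthest and nearest regions ended without GFP guide replicate 3 (log2 fold changes 0.31 and 0.22). The farthest also ended without Actg1 guide replicate 1 (limma adjusted p = 0.143) or 3 (0.111). The nearest also ended without Actg1 guide replicate 2 (limma adjusted p = 0.217) or GFP guide replicate 1 (0.111). The nearest region of Arf4, a small GTPase gene of the Golgi, had 650, 580 and 552 with the Actg1 guide, against 729, 669 and 710 with the GFP guide (-0.25, limma adjusted p = 0.000782), and ended without GFP guide replicate 3 (0.0882). Hexim1, an inhibitor gene of the elongation factor P-TEFb, rose in its middle region (0.44, limma adjusted p = 0.0177) and had 0.17 in its nearest (limma adjusted p = 0.0465), which ended after leaving out any 1 of 4 libraries (limma adjusted p from 0.126 to 0.361). Thbs3, a thrombospondin gene, had 563 in its farthest, 111 in its middle and 37.5 in its nearest region as means over libraries, and 0 of the 3 passed. Rab5if passed in none of its regions. For the middle regions, no fit that leaves out a library is given here.

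At the limit of the rule, the farther region of Ttc5 lay just inside, at 1000 bp, with 17, 16 and 21 with the Actg1 guide, against 12, 14 and 14 with the GFP guide. That of Trpv2, at 999 bp, had 19, 26 and 15 with the Actg1 guide, against 25, 13 and 17 with the GFP guide. Just outside lay a region of Psap at 1001 bp, with 52, 70 and 54 with the Actg1 guide, against 27, 43 and 44 with the GFP guide. A region of Zdhhc14 followed at 1002 bp, with 271, 238 and 254 with the Actg1 guide, against 273, 286 and 287 with the GFP guide.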

How the data were processed

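The authors deposited 1 table of regions with a signal value per library, named here a score because it is a read count that was scaled and rounded to whole numbers, as the values show, and no formula for the scaling is known here. The deposited table also gives the fraction of each region inside its gene, the gene bounds and strand, and the distance of each region centre to the TSS, which was checked against the gene bounds (largest difference 0.5 bp). The submitters' processing notes list mm10 as build and, without saying what each did, DESeq2 1.36.0, DESeq, featureCounts, STAR 2.7.10a, Trimmomatic 0.39 and Picard 3.0.0. How peaks were called and merged, and whether reads were shifted for the transposase, is not given in the sources used here. Each library came from 25000 cells, with transposition for 30 min at 37 °C, per the labels.

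Members, gene lists and tests were chosen with earlier results of these data known. A count test had been planned in case the values were raw counts, and limma was used because they are not. Libraries were grouped by their titles. The uneven use of small whole numbers gave the signal that 1 read is worth, and from it the estimated reads, which were used only for depth and for comparing replicates. Log2(signal + 1) was fitted by limma 3.58.1 (R 4.3.3, trend option, no covariates) over the 61327 regions that reached a signal of 10 in 3 or more of 6 libraries, with Benjamini-Hochberg adjustment and calls at an adjusted p under 0.05. Fold changes refer to log2(signal + 1), so those of low regions are understated. The same fit was made to log2 ratios in 5036 same-gene pairs, with the trend on the weaker region. For the 4 single values per library an exact permutation test (two-sided) was used, which cannot give a p below 0.1 here, adjusted over the 4. The fits were tested on simulated data. Other tools were Python 3.11.15, pandas 2.3.3, numpy 2.4.6 and scipy 1.17.1. SDs of the GFP guide are between the mean of replicates 1 and 2 and replicate 3. RefSeq promoter windows (GRCm38.p6) were matched by symbol or synonym.

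The named genes were the 8 largest rises and falls of the ratio among called pairs without overlap, the 5 genes each with both regions called in opposite and in the same direction, the 5 highest and 5 lowest ratios, the 5 strongest genes with 3 regions, up to 4 members of each gene list by signal, the regions at the distance limit, and the 3 widest and 3 narrowest gaps. Alternatives were 6 separate libraries, a replicate block, a pseudocount of 5, no filter, cyclic loess scaling, a window of 500 bp, the second nearest region, and leaving out each library.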

Additional observations from a re-analysis of the deposited data

How the results depend on the processing

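All counts of called regions and ratios stayed within 1.5 times with 6 separate libraries, a pseudocount of 5, no filter, cyclic loess scaling and the second nearest region in place of the farthest. With the replicate number as a block over 6 separate libraries, 357 regions and 140 ratios were called, against 296 and 116, and 0 of the 103 calls on named genes were lost. The blocked differences of the 4 per-library values were 0.12 (median ratio), 1.23 points (share), 0.09 and 0.02 (farthest and nearest against single-region promoters), with exact sign-flip p of 0.25 to 0.5, where 0.25 is the smallest possible. Deviations of same-numbered libraries correlated weakly, at 0.0138 to 0.0252, although each library correlated best with its own number. Whether replicate numbers pair the samples was not tested. Leaving out GFP guide replicate 3 leaves a lone GFP guide sample, assumed to vary like the others, and 51 of the 103 named calls ended. The counts were then 96 regions, 33 higher and 13 lower farther regions, 23 higher and 27 lower nearest regions, and 62 ratios, 44 higher and 18 lower. Leaving out each library in turn gave 96 to 290 regions, 33 to 95 and 13 to 43 farther regions, 23 to 61 and 27 to 97 nearest regions, and 62 to 120 ratios (44 to 88 higher, 18 to 32 lower). In that series the median ratio differed by 0.09 to 0.14, the share by 1.15 to 1.29 points, and the farthest and nearest regions against single-region promoters by 0.08 to 0.11 and 0.0069 to 0.05. A window of 500 bp keeps 33 genes, with 17 regions called (4 higher and 3 lower farther, 4 higher and 6 lower nearest) and 4 ratios (2 higher, 2 lower), and the nearest regions against single-region promoters then differed by -0.15 (exact permutation p = 0.3) where 0.01 was found at 1000 bp, and the cause was not tested. Loess scaling ended 5 of the 103 named calls, and no named call reversed under any fit listed here. Named calls have no value of their own for the 500 bp window and the second nearest region, which leave the fit of each region as it is. Low signals limit the farther regions, 20 of which stayed untested.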

Other observations

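Counts of rises and falls with the Actg1 guide varied between chromosomes, a pattern described after the values were seen. On the X chromosome, the 18 tested farthest regions of genes with several promoter regions had a median log2 fold change of 0.17, while their 19 tested nearest regions had a median of -0.26. By limma, 1 of these nearest regions rose and 12 fell, Amot, given above, among them. Single-region promoters on the same chromosome had 4 rises and 115 falls of 281 tested (median -0.18), and all 1745 tested regions there had a median of -0.11.

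Chromosome 11 holds the largest number of genes with several promoter regions, 58 of 783 with any (7.41%), a share below the 8.12% of chromosome 13. The farthest regions on chromosome 11 had a median of 0.22. Of 56 tested nearest regions there, 14 rose and 7 fell (median 0.08), and single-region promoters had 174 rises and 50 falls of 721 (median 0.08). Chromosome 19 had 3 rises and 0 falls among 12 nearest regions and 87 rises and 19 falls among 324 single-region promoters. On chromosome 1, nearest regions had 1 rise and 8 falls of 24, and single-region promoters 19 rises and 135 falls of 516. Over the chromosomes, the medians of farthest regions ranged from -0.06 on chromosome 4 to 0.31 on chromosome 10. Regions of 1 chromosome are not independent samples, and the difference between chromosomes was not tested. Copy number was not analysed here, so a difference in copies between the cultures and a difference in signal per copy cannot be told apart.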
